A study of Mus musculus with 24 samples.

Results

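Expression of 10 genes of the mouse cortex was followed library by library, namely Wdfy1, Ide, Nnt, Pla2g4e, Serpina3n, Krt12, Eno1b, Ndufs5, AA465934 and Gm9824. They were taken by name from the 43346 rows of the deposited gene count table, and all 10 were among the 19678 rows tested. Of these, 9 had been chosen by their measured levels, which fall into separate bands across the libraries, so the bands themselves describe the choice and carry no test. Nnt was picked as a gene at 1 level, for contrast. Bulk RNA sequencing covered the cortex of 24 mice, 1 library each, in 4 groups of 6, with 3 males and 3 females in each per the series text. Mice of the background strain C57BL/6 carried Cx3cr1CreER/+ and were either TREM2-WT+/+ or TREM2-R47H+/+. Cx3cr1CreER is a Cre recombinase made under the promoter of a microglial receptor gene and switched on by tamoxifen, which here was meant to start TREM2 expression. Induced mice received tamoxifen and control mice corn oil, which gives the groups WT_control, WT_induced, R47H_control and R47H_induced. Every group carried the Cre allele, and mice without it were not analysed here, so tamoxifen and induction cannot be told apart. The labels do not say which C57BL/6 substrain was used, nor which mice were littermates.

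A gene's messenger RNA usually varies smoothly between animals of 1 strain. Sequence differences near or in a gene can set its level in steps, because each animal carries none, 1 or both copies of an allele, and a difference between near-identical copies of a gene can also decide to which copy a short read is assigned. Genotypes of the mice were not analysed here, so neither was tested. The genes have different known roles. Wdfy1 encodes an endosomal adaptor of Toll-like receptor signalling. Ide encodes the insulin-degrading enzyme, a zinc peptidase that also cleaves amyloid beta. Nnt encodes the proton-driven transhydrogenase that makes NADPH in mitochondria. Pla2g4e encodes a cytosolic phospholipase that makes N-acyl phospholipids, Serpina3n a secreted serine protease inhibitor and marker of reactive astrocytes, and Krt12 a type I keratin known from the corneal epithelium. Ndufs5 encodes a subunit of respiratory complex I. Eno1b is an intron-poor copy of the glycolytic enolase Eno1, Gm9824 is listed as a processed pseudogene, and AA465934 as a processed transcript without a coding class.

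Total counts ran from 27933505 to 56082520 per library. Levels are given as CPM, read counts scaled to a common library size by the TMM-scaled total. The Trem2 row lay between 5.41 and 9.32 CPM in all 24 libraries, with medians of 6.35 and 6.17 in WT control and induced mice, and of 8.07 and 6.52 in R47H ones. Markers of cortical excitatory neurons were present throughout, for example Slc17a7 at 826.3 to 1026 CPM. Choroid plexus markers summed to between 15.2 and 621.0 CPM, and striatal neuron markers to between 520.4 and 686.3 CPM. Library 6 of WT_induced stood apart in immune genes: complement gene C4b was at 84.8 CPM there and at most 26.0 CPM in the others. In 12 libraries Xist was above 100 CPM and in the other 12 it was not, and no member's bands followed this division, with 12 to 14 of 24 libraries agreeing.

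A gene was counted at 2 levels where, on the log2(CPM + 0.1) scale, the widest gap between neighbouring libraries, with at least 3 libraries on each side, was wider than the whole range within either side. By this rule 79 of 19678 tested genes (0.401%) stood at 2 levels, 16 of them on the sex chromosomes and 63 on 19 autosomes. All 9 picked members met it, and Nnt did not. Ide met it by little, with a gap of 0.503 against a range of 0.5 in its upper band. Also just inside were Gm9625, by 0.003, and Gm10698, with a gap of 0.566 against a range of 0.562. Cdh15 and Gm10020 fell just outside, each by 0.004. A finer division, added after the data were seen, broke the order of libraries at every gap of at least 0.4 log2 units and required 2 libraries in each band. It placed 128 genes (0.65%) at 3 or more levels, among them Serpina3n, Krt12, Eno1b, Ndufs5 and AA465934. Wdfy1, Ide, Pla2g4e and Gm9824 had 2 bands.

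**Figure D1:**
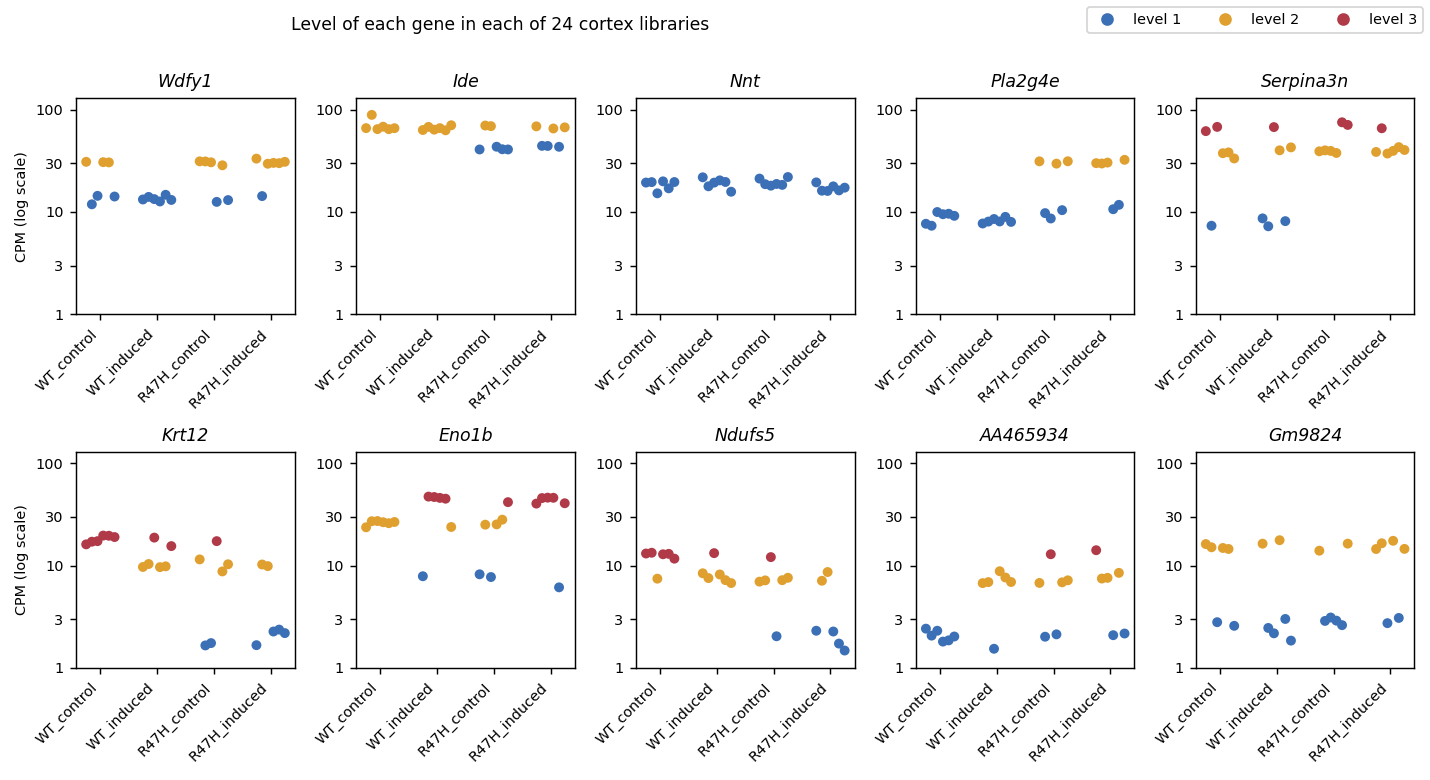
Level of each of the 10 genes in CPM (log axis) in each library, 1 point per library, by group; colours mark the bands found by gaps of at least 0.4 log2 units. Nnt forms 1 band between 15.2 and 21.95 CPM, while the other 9 genes leave empty space between bands.

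Wdfy1 (chromosome 1, 79702262 to 79776143, mm10) stood at 2 levels, with 12 libraries at 11.9 to 14.7 CPM (median 13.3) and 12 at 28.6 to 33.2 CPM (median 30.6). Its values, in replicate order, were 30.9, 11.9, 14.4, 30.7, 30.5 and 14.2 CPM in WT_control and 13.2, 14.03, 13.4, 12.7, 14.7 and 13.1 in WT_induced. They were 31.2, 31.1, 30.6, 12.6, 28.6 and 13.1 in R47H_control and 33.2, 14.3, 29.6, 30.2, 29.98 and 30.9 in R47H_induced. Replicate numbers only name the mice. Thus 3 libraries of WT_control, none of WT_induced, 4 of R47H_control and 5 of R47H_induced were in the upper band, and no library lay between 14.7 and 28.6 CPM. The upper median was 2.3 times the lower. In whole tissue, fewer cells of a type and less RNA per cell cannot be told apart. Microglial markers summed to 193.2 to 287.4 CPM in the lower band and to 200.4 to 229.0 in the upper one.

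To find genes that parted the libraries as a member did, each other tested gene was cut at the same numbers of upper and lower libraries, in the same or the opposite order, and the matching libraries were counted. A match of this kind needs no wide gap at the cut. For Wdfy1, 2 of 19677 genes matched in all 24 (0.0102%). They were Gm28800, 48.2 Mb away on chromosome 1, with a gap of 0.02 log2 units, and Zfp869 on chromosome 8, whose bands touched at 12.65 CPM. D2hgdh, which encodes a mitochondrial dehydrogenase 14.0 Mb from Wdfy1, matched in 22 in the opposite order. None of the 13 tested genes within 1 Mb matched in all 24.

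Ide (chromosome 19, 37268743 to 37337852) had its lower level only in R47H mice. In WT_control it was at 65.9, 88.8, 64.5, 68.1, 64.4 and 65.9 CPM and in WT_induced at 63.2, 67.8, 63.7, 65.9, 62.8 and 70.3. In R47H_control it was at 40.8, 69.9, 68.9, 43.4, 40.99 and 40.8, and in R47H_induced at 68.6, 44.3, 44.1, 65.4, 43.3 and 67.1. Libraries of R47H_control (4) and R47H_induced (3) made up the lower band, at 40.8 to 44.3 CPM. The other 17 lay at 62.8 to 88.8 CPM, and the ratio of the band medians was 1.52. Library 2 of WT_control stood above its band, at 88.8 CPM against 70.3 CPM for the next highest library.

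By order of libraries, 10 of 19677 genes (0.0508%) matched Ide in all 24. Of these, 5 were among the 620 others tested on chromosome 19, and the nearest was Btaf1, a regulator of the TATA-binding protein, 0.256 Mb away. Btaf1 had a median of 39.7 CPM (35.4 to 47.01) in libraries with low Ide and 57.6 CPM (52.0 to 68.3) in the rest. Its gap of 0.145 log2 units was the widest among the 10, against 0.503 in Ide. Library 2 of WT_control, the one with the highest Ide, also had the highest Btaf1, at 68.3 CPM. Library 1 of R47H_induced was close to it, with Btaf1 at 68.0 CPM and Ide at 68.6 CPM. Golga7b and Pyroxd2, 4.91 and 5.39 Mb away, matched in the opposite order. Fgfbp3, a fibroblast growth factor binding protein gene next to Btaf1, matched in 22 libraries, with 3.95 to 5.21 CPM where Ide was low and 4.86 to 7.32 CPM where it was high.

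Nnt (chromosome 13, 119335448 to 119408997) showed 1 level. Its lowest, median and highest values were 15.2, 19.5 and 19.9 CPM in WT_control, 15.8, 19.5 and 21.8 in WT_induced, 18.1, 18.7 and 21.95 in R47H_control, and 16.1, 16.8 and 19.5 in R47H_induced. The groups overlapped, and the widest gap was 0.07 log2 units. A deletion in Nnt is a known mark of the C57BL/6J substrain. The counts here are summed over the whole gene, so they do not show which exons were read. In GENCODE vM21, 47.4% of its exonic bases are also covered by another entry named Nnt, but the count table holds no other row of that name.

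Pla2g4e (chromosome 2, 120166412 to 120245335) had its upper level only in R47H mice. WT_control libraries were at 7.67, 7.34, 9.99, 9.51, 9.61 and 9.17 CPM and WT_induced libraries at 7.72, 8.06, 8.54, 8.08, 8.96 and 8.0. R47H_control libraries were at 31.2, 9.75, 8.64, 29.7, 10.4 and 31.3, and R47H_induced libraries at 29.99, 29.8, 30.4, 10.6, 11.7 and 32.3. In all, 3 R47H_control and 4 R47H_induced libraries formed the upper band of 29.7 to 32.3 CPM, and the other 17 formed the lower band of 7.34 to 11.7 CPM. The median was 3.39 times higher in the upper band. Cortical neuron markers summed to 1177.4 to 1358.2 CPM in the lower and 1225.0 to 1400.9 CPM in the upper band.

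A set of 12 genes matched Pla2g4e in all 24 libraries (0.061%), and 11 of them were on chromosome 2, out of 1634 tested there. They lay between 15.5 Mb before and 11.7 Mb after Pla2g4e. Within 1 Mb, 2 of 53 did so, Exd1 and Gm28042. Exd1, a gene of the piRNA pathway, was at 1.25 to 2.05 CPM where Pla2g4e was low and at 2.41 to 3.13 CPM where it was high. Eif3j1, a subunit gene of the translation initiation factor eIF3, matched in the opposite order, at 12.4 to 14.9 and 7.73 to 11.1 CPM. The widest gap among the matches, 2.66 log2 units, was that of Gm3650 on chromosome 18, at no more than 0.03 CPM in the lower band and 0.71 to 1.39 CPM in the upper one. Of the 50-base words of Gm3650 transcripts, 67.2% also occur in Eif3j1 and 92.8% in Spg11, so its reads are uncertain. Fam227b followed, with a gap of 0.48 log2 units. Pla2g4b, a relative 0.123 Mb away, matched in 22 libraries in the opposite order, with medians of 7.51 and 5.51 CPM.

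Serpina3n (chromosome 12, 104406729 to 104414329) stood at 3 levels. WT_control libraries were at 61.6, 7.34, 67.8, 37.5, 38.2 and 33.3 CPM and WT_induced libraries at 8.66, 7.25, 67.5, 40.03, 8.14 and 42.8. R47H_control libraries were at 39.1, 39.98, 39.5, 37.7, 75.2 and 70.8, and R47H_induced libraries at 38.6, 65.7, 37.2, 39.5, 43.01 and 40.3. The 3 bands held 4 libraries, all WT, at 7.25 to 8.66 CPM, 14 libraries at 33.3 to 43.0 CPM and 6 libraries at 61.6 to 75.2 CPM. No R47H library was in the lowest band.

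The astrocyte gene Gfap did not part with Serpina3n: it ran from 96.2 to 126.9 CPM in the lowest band, 89.0 to 266.8 in the middle band and 107.5 to 154.0 in the highest. The 17 listed markers of reactive astrocytes other than Serpina3n summed to 186.6 to 272.1, 180.3 to 685.9 and 196.4 to 260.8 CPM in the 3 bands. Medians over the bands were 99.96, 126.9 and 127.5 CPM for Gfap and 193.9, 227.3 and 220.2 CPM for the marker sum. Both were lowest in the lowest band, which held only WT libraries. Among WT libraries alone, Gfap ran from 96.2 to 126.9 CPM in the lowest band, 89.0 to 266.8 in the middle band and 107.5 to 119.8 in the highest. R47H libraries of the middle band were at 123.9 to 153.3 CPM. The part of genotype in these medians was not tested. Library 6 of WT_induced, with the highest Gfap at 266.8 CPM, was in the middle band of Serpina3n at 42.8 CPM. As for other genes, 10 of 19677 matched the lowest against the other bands in all 24 libraries (0.0508%), on 9 chromosomes; after Serpina3m, the widest gaps were those of Zfp236 and Rbfox2, at 0.03 and 0.02 log2 units. Serpina3m, the adjacent relative, was the only one to match in all 3 bands (0.00508%), at 0 to 0.14, 0.61 to 1.09 and 1.24 to 2.32 CPM. The transcripts share 0.9% of the 50-base words of Serpina3n.

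Krt12 (chromosome 11, 99415666 to 99422259) was high in every WT_control library and low only in R47H libraries. WT_control libraries were at 16.1, 17.1, 17.3, 19.6, 19.6 and 19 CPM, and WT_induced libraries at 9.69, 10.4, 18.8, 9.66, 9.83 and 15.5. R47H_control libraries were at 11.49, 1.66, 1.75, 17.3, 8.77 and 10.3, and R47H_induced libraries at 1.67, 10.2, 9.88, 2.27, 2.37 and 2.19. The lowest band held 6 libraries, all R47H, at 1.66 to 2.37 CPM, the middle band 9 at 8.77 to 11.49 CPM and the highest band 9 at 15.5 to 19.6 CPM. Of the last 9, 6 were WT_control, 2 WT_induced and 1 R47H_control.

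Exons of Krt12 are overlapped over 54.4% of their bases by A830036E02Rik on the opposite strand, and the library kit does not mark strand, so reads of the pair cannot be told apart there. A830036E02Rik itself stood at 1.25 to 2.15, 28.2 to 32.7 and 52.7 to 69.0 CPM in the bands of Krt12. Krt20, a keratin of intestinal and urothelial epithelium whose gene lies 0.006 Mb away, had the same 3 bands at 0.04 to 0.29, 2.15 to 2.99 and 4.94 to 7.37 CPM. Krt10, a keratin of the upper epidermis, matched all 3 bands in the opposite order, at 10.7 to 12.1, 9.61 to 10.6 and 7.22 to 9.52 CPM. These were the only 3 of 19677 genes that matched in all 3 bands (0.0152%). Corneal and skin markers other than Krt12 summed to 8.0 to 14.4, 6.6 to 10.6 and 5.6 to 9.3 CPM in the bands of Krt12, with Krt5 and Krt14 at no more than 0.03 and 0.07 CPM in any library. For the lowest band against the rest, 46 genes matched in all 24 libraries (0.234%). Among them, 9 were on chromosome 11, all within 5 Mb of Krt12, and Krt23 was among the 4 of 40 within 1 Mb.

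Ndufs5 (chromosome 4, 123712710 to 123718202) was measured beside a near copy of it, the processed pseudogene BC002163 (chromosome 16, 42955631 to 42955949). Over the 319 aligned bases the transcripts of GENCODE vM21 differ at 2. The first 120 coding bases of Ndufs5 (chr4:123715960-123716079, GRCm38, minus strand) and the matching stretch of BC002163 (chr16:42955631-42955750, plus strand) are shown because they hold both differences, in capitals:
Ndufs5: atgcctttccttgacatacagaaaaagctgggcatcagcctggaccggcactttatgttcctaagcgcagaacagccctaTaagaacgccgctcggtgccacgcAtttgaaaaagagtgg
BC002163: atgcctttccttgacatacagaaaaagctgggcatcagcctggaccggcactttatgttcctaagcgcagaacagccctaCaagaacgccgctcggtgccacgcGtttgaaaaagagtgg

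Ndufs5 was at 13.1, 13.3, 7.45, 12.9, 13.02 and 11.7 CPM in WT_control and at 8.41, 7.55, 13.2, 8.19, 7.21 and 6.75 in WT_induced. It was at 6.97, 7.17, 12.1, 2.04, 7.2 and 7.6 in R47H_control and at 2.31, 7.11, 8.65, 2.27, 1.73 and 1.48 in R47H_induced. In 5 libraries, all R47H, it lay at 1.48 to 2.31 CPM, in 12 at 6.75 to 8.65 CPM and in 7 at 11.7 to 13.4 CPM. WT_control had 5 of the 7 highest libraries, and R47H_induced 4 of the 5 lowest.

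BC002163 ran in the opposite order, at 16.1 to 19.3, 9.42 to 11.7 and 4.26 to 5.30 CPM in the 3 bands of Ndufs5. Together the pair took 18.4 to 21.6, 16.4 to 19.7 and 16.7 to 18.7 CPM, ranges that overlapped, while the share counted to Ndufs5 had medians of 10.6%, 40.4% and 72.2%. Of the 50-base words of BC002163, 72.6% also occur in Ndufs5, and reads without a differing base fit both. All 3 bands were matched by 5 genes (0.0254%), among them BC002163 and, on chromosome 4, Ppt1, Scp2 and Med8. Ppt1, a lysosomal thioesterase gene 0.854 Mb away, was at 105.8 to 110.8, 88.6 to 96.7 and 72.8 to 80.1 CPM, in the opposite order to Ndufs5. For the lowest band against the rest, 12 genes matched in all 24 libraries (0.061%), 9 of them on chromosome 4.

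Gm9824 (chromosome 10, 29030128 to 29030691) resembles Pebp1 (chromosome 5, 117282651 to 117287625), which encodes an inhibitor of Raf kinase signalling. Their 561 aligned bases differ at 6, and 51.8% of the 50-base words of Gm9824 also occur in Pebp1. A similar share, 53.5%, occurs in Gm10819. A window of 120 bases with 3 of the differences in capitals is given, for Pebp1 from coding base 395 to 514 (chr5:117283298-117283417, GRCm38, minus strand) and for Gm9824 (chr10:29030522-29030641, plus strand) to show how few bases separate the pair:
Pebp1: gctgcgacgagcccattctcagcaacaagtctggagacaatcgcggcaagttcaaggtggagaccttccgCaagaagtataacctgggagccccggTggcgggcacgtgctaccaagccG
Gm9824: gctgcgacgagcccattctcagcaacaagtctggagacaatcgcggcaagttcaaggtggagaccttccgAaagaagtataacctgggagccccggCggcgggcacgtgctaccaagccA

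Gm9824 was at 16.2, 15.1, 2.8, 14.9, 14.5 and 2.58 CPM in WT_control and at 16.4, 2.46, 2.18, 17.7, 3.01 and 1.85 in WT_induced. It was at 13.98, 2.88, 3.11, 2.9, 2.62 and 16.4 in R47H_control and at 14.5, 16.5, 2.74, 17.46, 3.08 and 14.6 in R47H_induced. The lower band held 12 libraries at 1.85 to 3.11 CPM and the upper band 12 at 14.0 to 17.7 CPM, and each genotype, each treatment and each side of the Xist division held 6 of either kind. No other gene matched in all 24 libraries (0%). Pebp1 came nearest, with 22 in the opposite order. It was at 82.0 to 93.8 CPM where Gm9824 was low and at 69.4 to 84.6 CPM where it was high. Their sum had medians of 93.6 and 95.8 CPM. Gm10819 was at 7.82 to 11.3 and 8.61 to 13.7 CPM in the lower and upper band of Gm9824, ranges that overlapped, with medians of 9.84 and 10.1 CPM. Dynlt1a and Gm15564 were among several genes that matched in 20 libraries.

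Eno1b (chromosome 18, 48045335 to 48048378) differs from Eno1 at 9 of 1652 aligned bases, and 76.4% of its 50-base words also occur in Eno1. WT_control libraries were at 23.7, 27.1, 27.2, 26.5, 25.9 and 26.7 CPM and WT_induced libraries at 7.87, 47.2, 46.8, 45.8, 45.02 and 23.8. R47H_control libraries were at 8.22, 25.1, 7.73, 25.3, 28.1 and 41.6, and R47H_induced libraries at 40.3, 45.7, 46.1, 45.95, 6.13 and 40.6. In 4 libraries Eno1b lay at 6.13 to 8.22 CPM, and in 10, among them all 6 of WT_control, at 23.7 to 28.1 CPM. In the other 10 it lay at 40.3 to 47.2 CPM, among them 5 of R47H_induced and 4 of WT_induced.

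Eno1, on chromosome 4, ran in the opposite order, at 194.1 to 217.9, 151.7 to 183.9 and 107.6 to 133.4 CPM. Here the sum of the pair was not level: its medians were 220.5, 201.1 and 169.9 CPM, and they stayed apart with the further copy Gm4735 added, at 228.7, 205.7 and 170.2 CPM. Gm4735, which differs from Eno1 at 5 of 1302 bases, was in the opposite order as well, at 8.02 to 8.73, 3.03 to 5.0 and 0.28 to 0.58 CPM. Only 3 genes matched all 3 bands (0.0152%), namely Eno1, Gm4735 and Slc2a5, a fructose transporter gene on the chromosome of Eno1. Slc2a5 was at 3.49 to 4.77, 2.10 to 3.02 and 1.05 to 1.74 CPM. For the lowest band against the rest, 12 genes matched in all 24 libraries (0.061%), Gm12226 on chromosome 11 among them. Of the 12, 7 were on chromosome 4 and none on chromosome 18, where 533 others were tested.

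**Figure D2:**
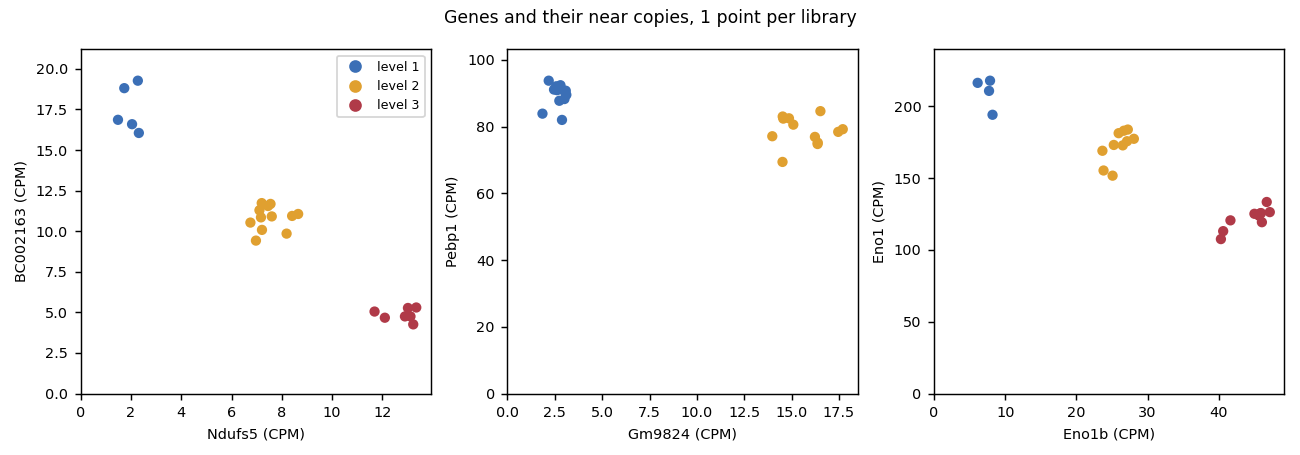
CPM of BC002163 against Ndufs5, of Pebp1 against Gm9824 and of Eno1 against Eno1b (linear axes from 0), 1 point per library, coloured by the band of the gene on the x axis. The medians of the gene on the y axis are lower in the higher bands of the gene on the x axis in all 3 panels; the bands of Pebp1 overlap, at 82.0 to 93.8 and 69.4 to 84.6 CPM, while those of BC002163 and Eno1 do not. BC002163 has medians of 16.9, 10.9 and 4.75 CPM over the bands of Ndufs5.

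AA465934 (chromosome 11, 83291699 to 83294632) was low in every WT_control library. It was at 2.42, 2.07, 2.31, 1.81, 1.86 and 2.03 CPM in WT_control and at 6.74, 6.9, 1.54, 8.81, 7.65 and 6.91 in WT_induced. It was at 6.77, 2.02, 12.9, 2.13, 6.86 and 7.18 in R47H_control and at 14.1, 7.47, 7.59, 2.09, 8.49 and 2.17 in R47H_induced. Its bands held 11 libraries at 1.54 to 2.42 CPM, 11 at 6.74 to 8.81 CPM and 2, both of R47H mice, at 12.9 and 14.1 CPM. No other gene matched in all 24 libraries (0%). Gm12576, 0.523 Mb away, matched in 22 in the opposite order, at a mean of 0.39 CPM. Utp18, a gene of ribosomal RNA processing 10.6 Mb away, matched in 22 in the same order, with medians of 16.8, 20.5 and 26.2 CPM over the 3 bands.

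In each of the 5 genes with 3 bands, the middle band lay near the midpoint of the outer ones on the linear scale. The middle median of Serpina3n was 39.3 CPM against a midpoint of 37.7 CPM, which is 52.7% of the way from the lowest to the highest median. Krt12 was at 51.5% of the way, Eno1b at 48.6%, Ndufs5 at 48.2% and AA465934 at 44.6%. Only 2 libraries set the highest median of AA465934. No test was run on these positions, since the bands were cut from the same values.

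**Figure D3:**
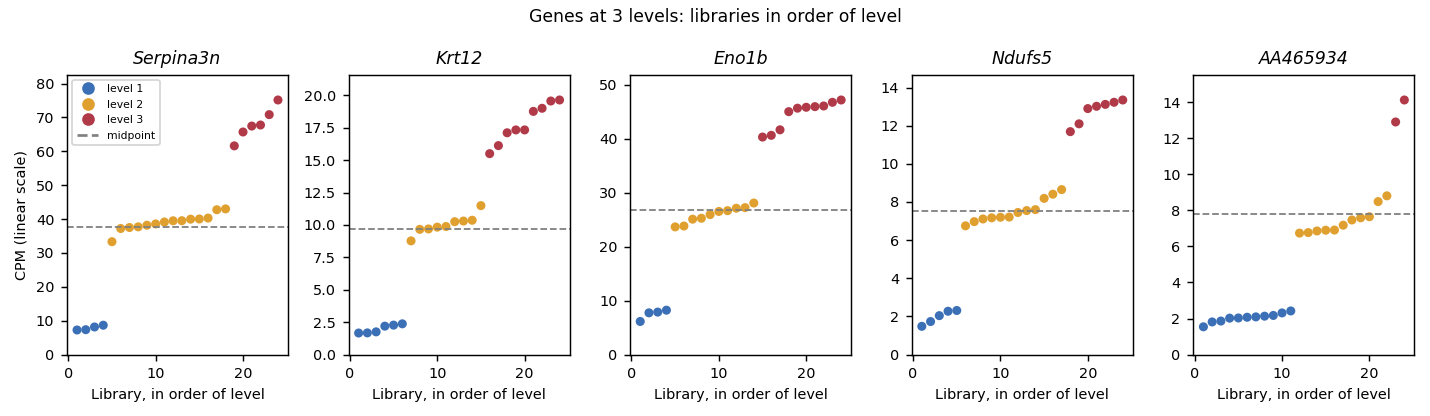
The 24 libraries in order of level for the 5 genes with 3 bands, in CPM (linear axes from 0), with the midpoint of the lowest and highest band medians as a dashed line. The middle band crosses the dashed line in all 5 genes, for example at 37.7 CPM in Serpina3n.

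The 9 genes did not split the libraries alike. Of their 36 pairs, none matched in all 24 libraries when each gene was parted at its widest gap, and the median pair matched in 14, in the same or the opposite order. Krt12 and Ndufs5 were nearest, with 21: 17 libraries were upper in both genes, 4 lower in both and 3 mixed. Ide and Pla2g4e followed with 20 in the opposite order, since 5 of the 7 libraries with low Ide were among the 7 with high Pla2g4e. All of those were R47H libraries. Krt12 and AA465934, 16.1 Mb apart on chromosome 11, matched in 13. Over all 9 genes the 24 libraries showed 18 different patterns. The 7 splits that were uneven can match in more libraries than even ones, and the libraries share their groups, so these counts are descriptions.

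**Figure D4:**
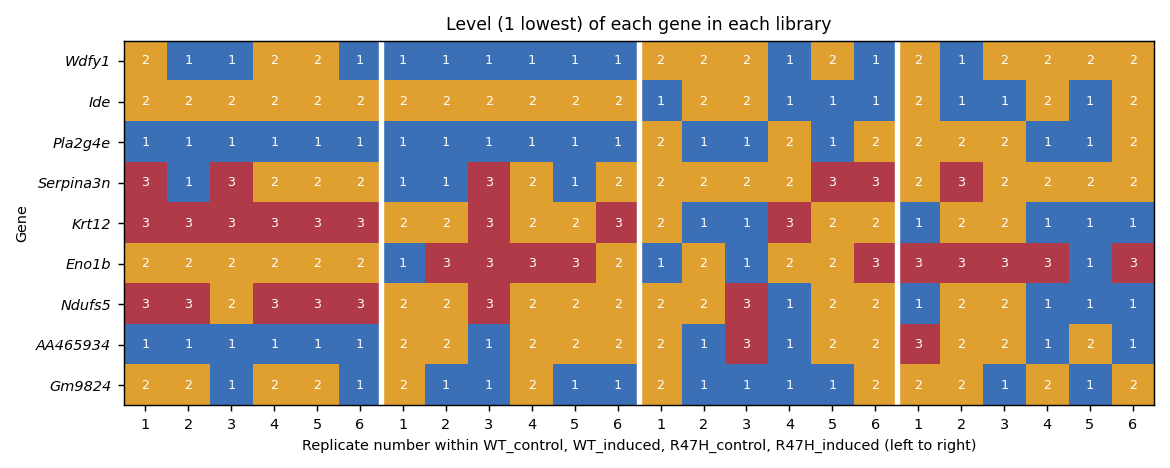
Band (1 is the lowest) of each of the 9 genes in each of the 24 libraries, with white lines between the groups. WT_control libraries are all in 1 band for Ide, Pla2g4e, Krt12, Eno1b and AA465934, and no row equals another.

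The share of matching genes that lay on a member's own chromosome differed between members. Of the genes matching in all 24 libraries, the share on the member's chromosome was 5 of 10 for Ide, 11 of 12 for Pla2g4e and 9 of 12 for Ndufs5, and these were 0.81%, 0.67% and 0.72% of the genes tested on that chromosome. On the other chromosomes, 0.0262%, 0.00554% and 0.0163% matched. For Serpina3n 1 of 10 was on the same chromosome, for Krt12 9 of 46 and for Eno1b 0 of 12. For Wdfy1 it was 1 of 2. In that order, 0.14%, 0.57%, 0% and 0.07% of the genes tested on the member's chromosome matched. On the other chromosomes it was 0.0474%, 0.205%, 0.0627% and 0.00548%. AA465934 and Gm9824 had no match in all 24. Neighbours on a chromosome are not independent of each other.

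**Figure D5:**
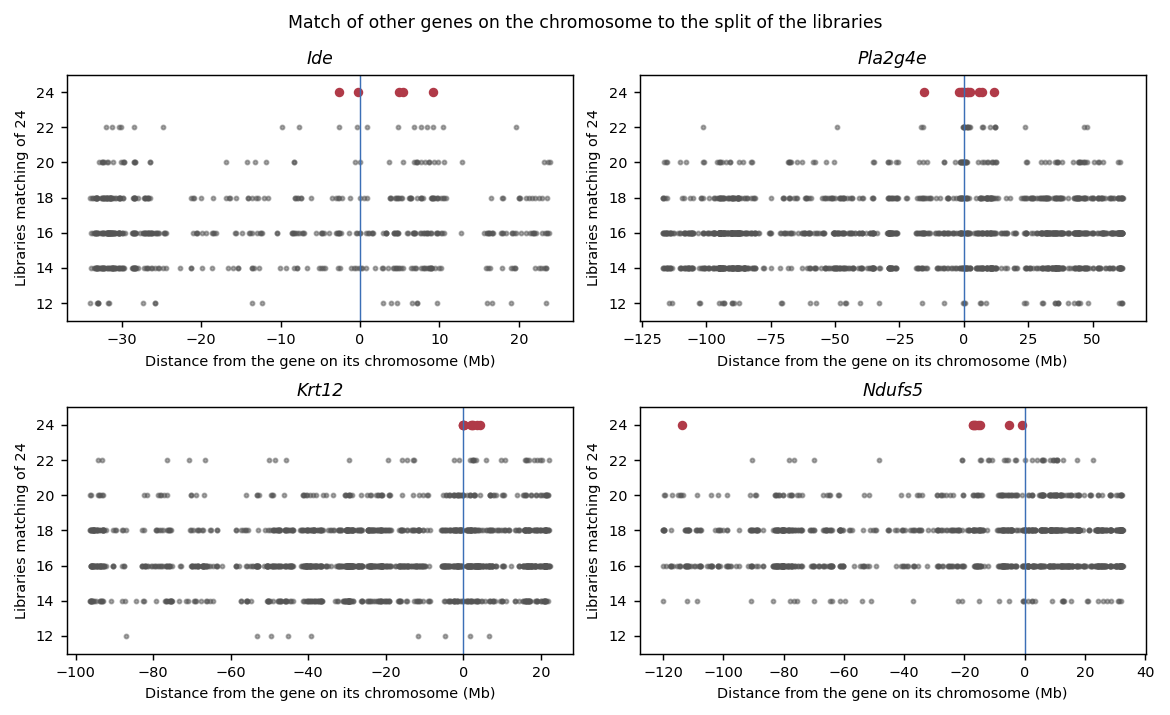
Libraries of 24 in which other genes on the same chromosome parted as Ide, Pla2g4e, Krt12 or Ndufs5 did, against the distance in Mb; red points match in all 24. The red points of Krt12 lie within 5 Mb, those of Pla2g4e from 15.5 Mb before to 11.7 Mb after, and 1 of Ndufs5 lies 113.9 Mb before it.

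The study's comparisons read differently for genes in bands, since a group's mean then depends on how many of its mice were in each. Every p-value here is from edgeR's quasi-likelihood test with Benjamini-Hochberg adjustment over all tested genes. The members' rows are descriptions, because the genes were chosen with these libraries in view. Tamoxifen against corn oil gave no called gene in WT mice (0% of 19678) or in R47H mice (0%), and neither did the difference of the 2 inductions (0%). At an unadjusted p below 0.05 there were 1545, 1006 and 1562 of 19678 genes, and DESeq2 called 10, 4 and 3. Without any difference, a share of about 0.05 of the tests would fall below that line. R47H_control against WT_control gave 1129 called genes (5.74%), none of them a member. R47H_induced against WT_induced gave 1142 (5.8%), with 2 of 10 members, both higher in R47H.

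Pla2g4e had means of 24.1 ± 10.1 (SD, n = 6) CPM in R47H_induced and 8.23 ± 0.45 in WT_induced, a log2 difference of 1.54 (SE 0.35, adjusted p = 0.0104 by edgeR). In the controls the means were 20.2 ± 11.6 and 8.88 ± 1.1 CPM, a log2 difference of 1.17 with an adjusted p of 0.0508 in edgeR. Wdfy1 had means of 28.02 ± 6.84 in R47H_induced and 13.5 ± 0.74 CPM in WT_induced, a log2 difference of 1.05 (SE 0.29, adjusted p = 0.0332 by edgeR). Its call was lost without a filter on low counts, at 1.05 and an adjusted p of 0.0551, and without library 6 of WT_induced, at 1.04 and 0.061, both by edgeR; the size of the difference hardly moved. In the controls the Wdfy1 difference was 0.15, with an adjusted p of 0.818 in edgeR. Whether the differences in the 2 treatments differ is the difference of inductions, for which edgeR gave 0.90 for Wdfy1 (adjusted p = 0.616) and 0.37 for Pla2g4e (0.913). Striatal neuron markers moved beside these comparisons: 3 of 5 tested were called lower in R47H in the controls and 1 of 5 in the induced mice. Their part in the members' values was not tested. Library sums of that list were 521.8 to 686.3 CPM in the lower band of Pla2g4e and 520.4 to 621.6 in the upper one.

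Other members had large differences in mean that did not pass the test. AA465934 had means of 2.08 ± 0.24 CPM in WT_control and 6.42 ± 2.51 in WT_induced, a log2 difference of 1.62, and edgeR gave an adjusted p of 0.492. Krt12 means were 18.1 ± 1.47 CPM in WT_control and 8.55 ± 6.04 in R47H_control, and 12.3 ± 3.89 in WT_induced and 4.77 ± 4.11 in R47H_induced, with adjusted p of 0.197 and 0.118 in edgeR. Ndufs5 was at 8.56 ± 2.37 CPM in WT_induced and 3.93 ± 3.12 in R47H_induced, with an adjusted p of 0.103 in edgeR. Nnt, at its 1 level, differed by -0.16 in the induced mice, with an adjusted p of 0.228 in edgeR. The median log2 difference over all tested genes was between -0.001 and 0.004 in the 5 comparisons.

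Relatives of the members mostly kept to 1 level. Over all tested genes 79 of 19678 (0.401%) met the rule of 2 levels, so lists this short would mostly hold none. None of the 6 other tested genes of the Wdfy family and its Toll-like receptor route, the 8 other peptidases of insulin and amyloid beta, the 5 other sources of mitochondrial NADPH, the 3 other group IV phospholipases, the 4 other enolases or the 35 other complex I subunits met the rule of 2 levels. Among 7 other type I keratins, Krt20 met it, and among 4 other Serpina3 genes none did, although by the finer division Serpina3f and Serpina3g had 2 bands, Serpina3m 3 and Serpina3k 7. Medians of these genes were only 0.2, 0.23, 0.91 and 0.48 CPM, in that order. Their counts over all libraries summed to 262, 451, 889 and 1089, so these bands rest on few reads. Of the complex I subunits, Ndufa8, Ndufb6 and Ndufb8 were called higher and Ndufb4 lower in R47H_control than in WT_control. In that comparison 1129 of 19678 tested genes (5.74%) were called. Pla2g4b was called lower in R47H in both treatments, by edgeR at -0.38 (adjusted p = 0.0184) in the controls and -0.39 (adjusted p = 0.0133) in the induced mice. Krt222 was lower in both as well, at -0.20 and -0.18, and Me3, a mitochondrial malic enzyme, was higher in induced R47H than in induced WT mice, at 0.47. These hold without library 6 of WT_induced. Calls of 7 other relatives and markers in the induced mice were lost without it: Ndufa8, Ndufb9, Krt23, Serpina3g, Gbp2, Psmb8 and H2-D1. For 3 of these the log2 difference stayed about as large: it was -1.19 with it and -1.20 without it for Krt23, 0.09 and 0.08 for Ndufb9, and 0.12 and 0.10 for Ndufa8, at adjusted p of 0.052, 0.0791 and 0.088 by edgeR without it. For the other 4 it shrank: Serpina3g was at -2.47 with it (adjusted p = 0.0403 by edgeR) and -1.30 without it (0.168), Gbp2 at -2.44 and -1.26, Psmb8 at -1.68 and -0.65, and H2-D1 at -1.24 and -0.47.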

How the data were processed

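Cortex RNA of 24 mice was sequenced from poly-A libraries of a TruSeq v2 kit, which does not mark strand, per the labels' protocols. Whole-number read counts were deposited for each gene, not normalized by the authors. Alignment with STAR 2.5.2b, counting with featureCounts 1.5.1 and build mm10 are named in the submitters' processing notes. Read length is, like the counting options and the handling of reads that fit several genes, not given in the sources used here. Groups came from the genotype and treatment labels. Of 43346 genes, 19678 passed filterByExpr and were tested in a single edgeR 4.0.16 fit (R 4.3.3) over 24 libraries, with TMM scaling, robust quasi-likelihood tests and Benjamini-Hochberg adjustment, called below 0.05. CPM uses the TMM-scaled totals. Bands, matching libraries and marker sums were computed in Python 3.11.15 and have no p-values. For each member, up to 3 genes with the most matching libraries are named, ties going to the wider gap, beside genes within 1 Mb that matched in all 24 and relatives called or at 2 levels; other genes were named after their values were seen. Some genes that this rule names are not reported here. Copies were compared on GENCODE vM21 transcripts (GRCm38) with Biopython 1.88, in words of 50 bases. Alternatives were other scalings, filters, pseudocounts and band rules, sex as a covariate, 12-library fits, DESeq2 1.42.0 and the removal of WT_induced replicate 6. The procedures were tested on simulated data. Simulated bands lay further apart than those of Ide, Wdfy1 and Pla2g4e, and than the upper bands of Serpina3n, Krt12, Eno1b, Ndufs5 and AA465934. Narrow gaps were thus not covered. The members and gene lists were chosen with earlier results of these data known.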

Additional observations from a re-analysis of the deposited data

Results flagged for a closer look

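Within 6 libraries of a group, a library counts as far from the rest when its distance to the nearest other one takes up more of the group's range than Dixon's 95% critical value. Of 40 gene and group combinations tested, 8 had such a library. Chance flags about 1 in 20 groups, but that rate does not apply here, since the genes were chosen for libraries that lie apart. In 6 of the 8 the library was in another band than the other 5 of its group. These were Wdfy1 in R47H_induced 2, at 14.3 CPM with the next at 29.59, and Serpina3n in the same library, at 65.72 CPM with the next at 43.01. Eno1b was at 6.13 CPM in R47H_induced 5, with the next at 40.31. Ndufs5 was at 7.45 CPM in WT_control 3, with the next at 11.69, and at 13.23 CPM in WT_induced 3, with the next at 8.41. AA465934 was at 1.54 CPM in WT_induced 3, with the next at 6.74. In the other 2 the library was in the band of its group: Ide at 88.8 CPM in WT_control 2, with the next at 68.07, and Eno1b at 23.66 CPM in WT_control 1, with the next at 25.94. Their causes were not tested.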

How the results depend on the processing

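All 9 members met the rule of 2 levels with a pseudocount of 0.5 CPM, with no filter on low counts, with 2 libraries allowed on a side, with a cut by the smallest sum of squares, with a gap of 2 pooled SD and without WT_induced replicate 6; with library totals 8 did, Ide being the exception. No library changed side under these settings. The number of genes at 2 levels was 79, and it was 2116 with no filter (of 34082 genes) and 267 with a gap of 2 pooled SD; the cause was not tested. Genes at 3 or more levels numbered 128, and 285 and 69 with steps of 0.3 and 0.5. Members with exactly 3 bands were then 4 (Krt12 not among them) and 3 (Serpina3n, Eno1b and AA465934). With steps of 0.3 the lowest band of Krt12 also broke, between 1.75 and 2.19 CPM, so that it had more than 3 bands. For induction in WT mice, DESeq2 called 10 genes against 0 by edgeR. For induction in R47H mice, DESeq2 called 4, the 12-library fit 1 and the fit without WT_induced replicate 6 called 1, against 0. For the difference of inductions DESeq2 called 3, against 0. The 2 calls of members had 12 alternative values: 10 stayed called, 2 (both of Wdfy1) did not, and none changed direction. No paired analysis was possible because the replicate numbers were given in accession order and pair no mice. Genes with few counts limit the bands: AA465934 had as few as 63 reads in a library and Krt12 47.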

Other observations

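Annotation classes of the other genes at 2 levels differed from the table as a whole. Of the 63 on autosomes, 23 were listed as pseudogenes (36.5%), against 1025 of 18971 autosomal genes tested (5.4%), and 29 were protein coding (46.0%, against 80.1%). Without the members, 22 of 54 were pseudogenes (40.7%).

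Beyond the keratins, 17 of 1455 genes tested on chromosome 7 (1.17%) matched the lowest band of Krt12 against the rest in all 24 libraries. On chromosome 11, that of Krt12, the share was lower (9 of 1589, 0.566%), and on chromosome 17 it was 9 of 935 (0.963%). All 6 libraries of that band were R47H, and the part of genotype in these matches was not tested. Matches need no wide gap, and Coa3 on chromosome 11 had a gap of 0.0 log2 units. The matching genes on chromosome 7 lay between 44501699 and 107591094. Trim12a, a gene of the TRIM family of antiviral restriction factors, was at 0 to 0.1 CPM in the 6 libraries with low Krt12 and at 0.74 to 2.79 CPM in the others. It did not follow the 3 bands: its medians were 0.03, 1.81 and 1.15 CPM. Myo7a, a motor protein gene of the inner ear and retina, was among them, with a gap of 1.22 log2 units.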
